A study of Mus musculus with 18 samples.

Results

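The 10 genes described here encode proteins that neutrophils store or carry, out of 19938 genes measured in the vestibular organ of the mouse inner ear. They are a list of names rather than a choice by a measured threshold, but were chosen with earlier results of these data known. They fall into 4 primary granule genes (Mpo, Elane, Prtn3 and Ctsg) and 6 genes of later steps (Ngp, Ltf, Camp, Lcn2, S100a8 and S100a9). Each was read by a single probe set of the Mouse Gene 1.1 ST array. The samples were Igf1-/- mice and Igf1+/+ mice on a hybrid of the Mf1 and 129/sv backgrounds, taken before birth (E18.5), in the third postnatal week (P15) and as adults (P90); each of the 6 groups has 3 arrays, 18 in all. All animals, controls included, were perfused with paraformaldehyde before the inner ear was dissected. The labels name each array a biological replicate, do not say how many animals it holds, and do not describe the Igf1 allele. The description line of the P15 and P90 wild-type arrays reads Igf1 -/-, whereas their titles, sources and genotype entries read Igf1 +/+, and the latter were used.

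Neutrophils are made in bone marrow, and their precursors switch on granule genes in sequence. Promyelocytes make the proteins of primary (azurophil) granules, myelocytes and metamyelocytes make those of secondary granules, and the cytosolic pair S100a8 and S100a9 builds up as cells mature, so that this pair belongs to the neutrophil but not to a granule. The membranous vestibular organ lies inside bone, and in a bulk extract more cells of a type and more RNA per cell cannot be told apart.

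Levels are quantile-normalized log values whose base is not stated. The base is probably e, and 1 unit is then 2.72-fold; it would be 2-fold with base 2. No detection call was used, so each level is also placed among the 19938 genes, as a guide to its place in the array's range, since probe sets of different genes respond differently. Deposited array medians ran from 3.88 to 4.82. With 3 arrays a group precision is limited, and since no label names litters or animals, the p-values given here speak only for the spread among the arrays hybridised. Igf1 ran from 6.4 to 6.88 in null and 6.98 to 7.07 in wild type at E18.5, 5.42 to 5.69 and 5.87 to 6.11 at P15, and 5.31 to 5.51 and 5.39 to 5.63 at P90. The labels do not say where the deleted part lies relative to its probes, and these levels are no check of the genotype. Xist, which marks cells with a silenced X chromosome, was at 1.86 to 3.33 in the wild-type P90 arrays and at 4.09 to 8.09 in all others. Oc90, the main otoconial protein, stood above 99.9% of genes in both E18.5 groups and above 31.1% to 43.4% after birth. Among hair cell genes, Myo7a lay at or above 44.9% of genes in every group, whereas Pou4f3 lay at or below 31.1%.

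All 10 genes were called higher at P15 than at E18.5, beside 19.7% of all genes in wild type and 20.3% in null. None passed the test between P15 and P90, though in null this count depended on the processing. There 8.08% of all genes were called higher and 9.78% lower in wild type, and 6.12% and 6.83% in null. None differed by the test between Igf1 null and wild type at any stage. Few genes of any kind did: 0.0802% of all genes at E18.5, 0.015% at P15 and 0.296% at P90. At E18.5 every member was among the dimmer genes, with group means above only 5.27% (Ngp, wild type) to 32.7% (Camp, null) of genes. From P15 the 4 primary genes stood above 61.2% to 93.5% of genes, and the later genes other than Camp above 96% or more. Camp stood above 81.8% to 93%.

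**Figure D1:**
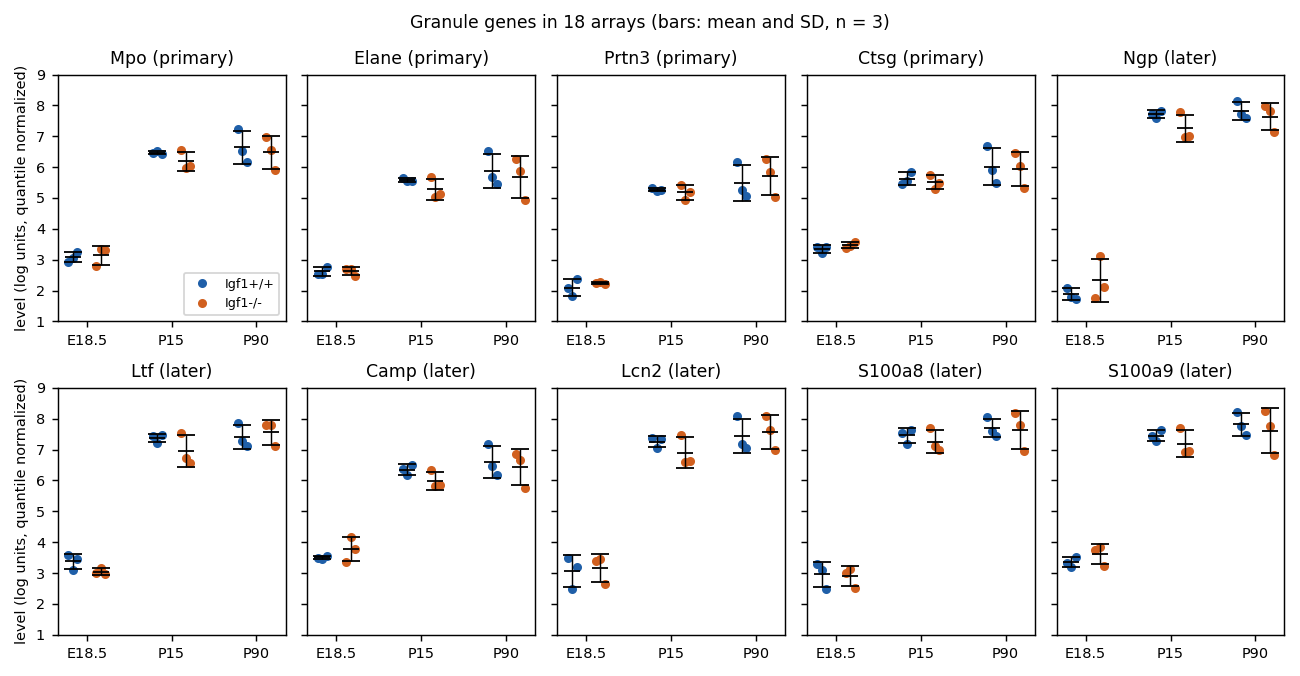
Level of each of the 10 genes in log units (y axis) by stage (x axis), with blue points for Igf1+/+ arrays, orange points for Igf1-/- arrays, and bars for the group mean and SD of 3 arrays. Every P15 and P90 array lies above every E18.5 array in all panels, and the genotypes overlap at each stage.

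Among the primary genes, Mpo encodes myeloperoxidase, the haem enzyme that makes hypochlorous acid. In wild type its level was 2.94, 3.07 and 3.26 in the E18.5 arrays and 6.46, 6.51 and 6.42 in the P15 arrays. In null it was 2.79, 3.34 and 3.31 at E18.5 and 6.55, 5.98 and 6.03 at P15. The stages lay far apart in both genotypes, and at P15 null array 1 was the highest of the 6 arrays and null arrays 2 and 3 the lowest. The rise was 3.37 ± 0.27 (SE, n = 3 arrays a group) in wild type (limma adjusted p = 1.1e-07) and 3.04 ± 0.27 in null (adjusted p = 3.5e-07).

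Elane, neutrophil elastase, was at 2.54, 2.54 and 2.78 in the E18.5 wild-type arrays and reached 5.65, 5.55 and 5.55 at P15. In null it was at 2.71, 2.71 and 2.48, and then at 5.67, 5.04 and 5.12. No array of one stage reached those of the other, and the rise was 2.96 ± 0.29 in wild type and 2.65 ± 0.29 in null. Prtn3, proteinase 3, rose by 3.17 ± 0.28 and 2.93 ± 0.28, from group means of 2.1 ± 0.28 (SD) and 2.25 ± 0.04 to 5.27 ± 0.06 and 5.19 ± 0.24. Ctsg, cathepsin G, had the smallest rise of the 10, at 2.27 ± 0.27 and 2.03 ± 0.27, from E18.5 levels of 3.35 ± 0.12 and 3.47 ± 0.1 (SD). Even that rise exceeded the difference of 98.8% of genes in wild type and 98.5% in null.

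Of the genes of secondary granules, Ngp, a granule protein related to cathelicidins, changed most. It was at 2.1, 1.8 and 1.74 in the wild-type E18.5 arrays and at 7.73, 7.6 and 7.83 at P15. In null it was at 1.76, 3.12 and 2.11, and then at 7.77, 6.99 and 7. Its rise was 5.84 ± 0.31 in wild type (adjusted p = 1.7e-09) and 4.92 ± 0.31 in null (adjusted p = 8.9e-09), which is 343-fold and 137-fold with base e and 57.2-fold and 30.3-fold with base 2. Because the E18.5 level is near the bottom of the array's range, the size of such a fold depends on the background signal there. Null array 2 at E18.5 stood above the other 5 E18.5 arrays for Ngp, and it was the highest of its group for 9 of the 10 members. The same array held the highest E18.5 level of Ucp1, a brown fat gene (6.47, against 2.25 to 2.67 in wild type), and whether the dissected tissue plays a part in its Ngp level was not tested.

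Ltf encodes lactoferrin, an iron-binding protein. It was at 3.57, 3.11 and 3.45 in wild type and 3.01, 3.17 and 2.96 in null at E18.5, and at 7.45, 7.21 and 7.46 and at 7.53, 6.74 and 6.57 at P15. Every P15 array was above every E18.5 array, and the rise was 4 ± 0.25 in wild type and 3.9 ± 0.25 in null. Camp, the precursor of the antimicrobial peptide CRAMP, rose by 2.84 ± 0.28 and 2.22 ± 0.28, the smallest rise of the later genes. Lcn2, which binds bacterial siderophores and is also made by epithelia, rose by 4.19 ± 0.35 and 3.74 ± 0.35.

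S100a8 and S100a9 form calprotectin, an abundant calcium- and zinc-binding complex of the neutrophil cytosol. At E18.5 the S100a8 level was 3.28, 3.09 and 2.49 in wild type and 3.01, 3.14 and 2.53 in null. At P15 it was at 7.55, 7.19 and 7.63 in wild type and at 7.69, 7.1 and 6.99 in null. Its rise was 4.5 ± 0.3 and 4.37 ± 0.3, and that of S100a9 was 4.1 ± 0.3 and 3.57 ± 0.3. For both genes wild-type array 2 was the lowest of its group at P15, and null array 1 the highest of its own.

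In all, 10 of 10 members were called higher at P15 than at E18.5 in wild type (adjusted p from 1.7e-09 to 6.1e-06), where 19.7% of all genes were called higher and 21.9% lower. In null 10 of 10 were called higher (adjusted p from 8.9e-09 to 2.2e-05), against 20.3% of genes higher and 20.5% lower. All 3 P15 arrays lay above all 3 E18.5 arrays for 10 of 10 members in each genotype, as they did for 26% of genes in wild type and 24.5% in null. The median rise of the members was 3.68 in wild type and 3.31 in null, beside medians over all genes of -0.05 and -0.04. Only 241 genes had a larger difference than Ctsg in wild type and 308 in null. Since the members were chosen with earlier results of these data known, their counts beside the shares of all genes are a description.

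**Figure D2:**
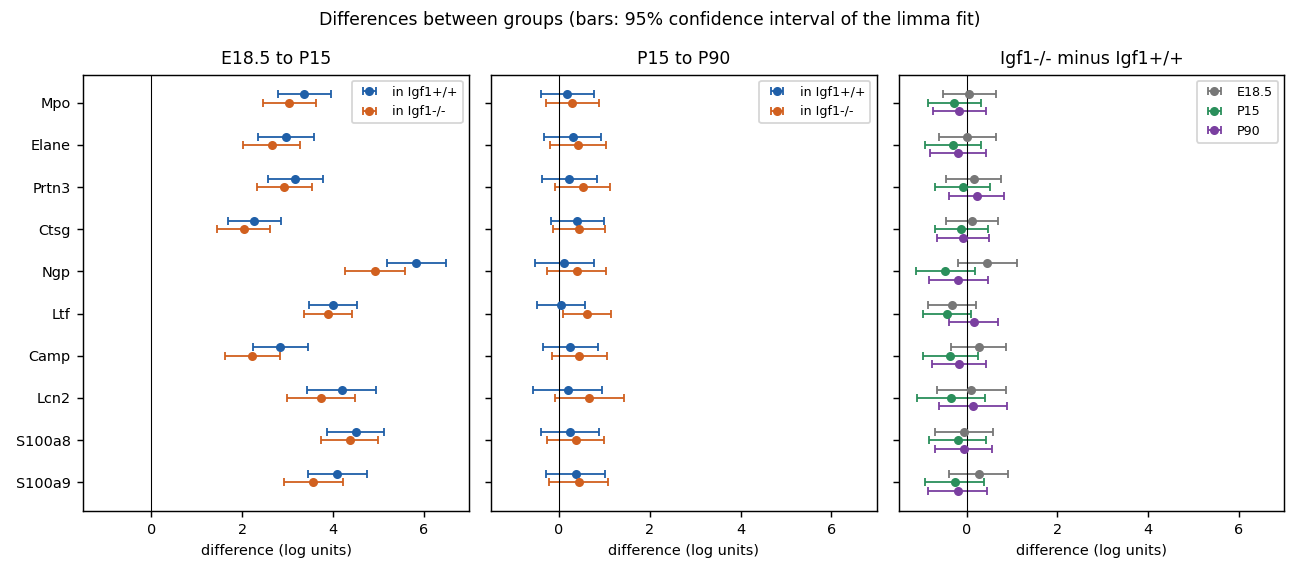
Difference between groups for each gene in log units (x axis), with points for the estimate and bars for its 95% confidence interval, for E18.5 to P15, P15 to P90 and Igf1-/- minus Igf1+/+. The E18.5 to P15 intervals all lie above 0, from 1.45 upwards, and of the others only that of Ltf in null from P15 to P90 (0.09 to 1.15) leaves out 0.

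Most later genes had larger rises than the primary genes from E18.5 to P15. In wild type the primary rises ran from 2.27 to 3.37 and the later ones from 2.84 to 5.84, and Camp was the later gene that lay within the primary range. In null the ranges were 2.03 to 3.04 and 2.22 to 4.92. After each gene was centred on its own mean over all arrays, the mean of the later genes minus that of the primary genes was -0.79, -0.51 and -1.08 in the null and -0.59, -0.85 and -1.02 in the wild-type E18.5 arrays. At P15 it was 0.51, 0.33 and 0.15 in null and 0.54, 0.32 and 0.58 in wild type, so the stages did not overlap. The later genes thus gained 1.3 more than the primary genes in wild type and 1.12 more in null, beside an SD between arrays of 0.19. This is a description of 10 chosen genes with no test, and gains of different probe sets need not be on a common scale.

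Between P15 and P90 that balance moved by less than the spread between arrays. The later-minus-primary value was 0.31, 0.45 and 0.44 in null and 0.22, 0.44 and 0.55 in wild type at P90. Its change from P15 was 0.07 in null and -0.07 in wild type. Between genotypes it differed by 0.03 at E18.5, -0.15 at P15 and -0.01 at P90, again within an SD of 0.19. Neither class therefore shifted against the other after P15 by more than the arrays of a group differed.

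Sequence upstream of the genes is shown for both classes as a description. Motif counts differed between the classes, but over so few windows this was not tested. The 250 bases before each annotated start, from RefSeq on GRCm38.p6, were searched on both strands for GAGGAA, the purine-rich core read by PU.1, and for TTNNGNAA, a loose C/EBP motif, with overlaps of the 2 motifs allowed. Entries were found for 10 of 10 members. The C/EBP letters were in 0 of 4 primary and 5 of 6 later windows (36.8% of 32851 windows of this length hold them), and Camp was the later gene without them. The GAGGAA letters were in 4 of 4 primary and 3 of 6 later windows (23.3% of all windows), and Camp, whose window is not shown, held neither motif. In Elane and Prtn3, which are neighbours on chromosome 10 with 0 protein-coding genes between them, the match began 85 and 95 bases before the start. Ngp held 3 C/EBP matches and Ltf 2. Capitals mark the matches, on either strand, in these 4 windows, which run 5′ to 3′ in the direction of the gene.

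Elane, chr10:79886062-79886311, plus strand: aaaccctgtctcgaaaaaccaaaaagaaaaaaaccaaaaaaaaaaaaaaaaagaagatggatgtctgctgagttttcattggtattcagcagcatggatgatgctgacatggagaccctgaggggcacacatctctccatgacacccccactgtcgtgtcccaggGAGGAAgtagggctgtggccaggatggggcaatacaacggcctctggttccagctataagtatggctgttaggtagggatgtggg

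Prtn3, chr10:79879417-79879666, plus strand: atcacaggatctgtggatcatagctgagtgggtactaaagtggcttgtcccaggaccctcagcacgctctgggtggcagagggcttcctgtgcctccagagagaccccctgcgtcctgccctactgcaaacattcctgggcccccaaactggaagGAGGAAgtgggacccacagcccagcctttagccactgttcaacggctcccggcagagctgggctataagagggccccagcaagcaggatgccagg

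Ngp, chr9:110419558-110419807, plus strand: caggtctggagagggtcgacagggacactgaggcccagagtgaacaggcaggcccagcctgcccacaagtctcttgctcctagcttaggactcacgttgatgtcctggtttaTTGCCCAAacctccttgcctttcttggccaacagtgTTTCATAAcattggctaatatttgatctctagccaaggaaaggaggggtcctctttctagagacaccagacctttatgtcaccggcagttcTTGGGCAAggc

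Ltf, chr9:111019042-111019291, plus strand: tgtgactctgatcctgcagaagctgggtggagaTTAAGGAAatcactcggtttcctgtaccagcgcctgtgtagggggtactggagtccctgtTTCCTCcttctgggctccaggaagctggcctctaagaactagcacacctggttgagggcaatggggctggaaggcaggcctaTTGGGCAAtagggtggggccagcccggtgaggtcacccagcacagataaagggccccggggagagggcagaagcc

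A match is only a run of letters, and these arrays measured no binding. The capitals in Elane and Prtn3 are the single GAGGAA of each. In Ngp all capitals are C/EBP letters, and in Ltf the run TTCCTC is GAGGAA on the other strand. S100a8 and S100a9 are also neighbours, with 0 protein-coding genes between them, on chromosome 3. Camp, Ngp and Ltf share chromosome 9, with 8 protein-coding genes between Camp and Ngp and 20 between Ngp and Ltf.

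From P15 to P90 no member passed the test in either genotype, and all 10 estimates were above 0 in both. In wild type Mpo was at 7.24, 6.51 and 6.17 at P90, Ngp at 8.15, 7.73 and 7.6, and S100a8 at 8.04, 7.61 and 7.45. Array 1 was above every P15 array for these genes while for Mpo array 3 lay below all of them. The differences ran from 0.04 ± 0.25 for Ltf to 0.4 ± 0.27 for Ctsg, and 0 of 10 were called (adjusted p from 0.33 to 0.93, 0 at an unadjusted limma p under 0.05), where 8.08% of all genes were called higher and 9.78% lower. Their direction is not firm: with array medians subtracted the median over members was -0.1. The Xist level differed between these groups as well, at 5.34 to 7.48 in the P15 and 1.86 to 3.33 in the P90 wild-type arrays. With a sex score as a covariate the count stayed 0, but the score follows the group here, so that fit cannot separate age from sex.

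In null the differences were 0.29 ± 0.27 (Mpo) to 0.67 ± 0.35 (Lcn2), with 0 of 10 called (adjusted p from 0.13 to 0.56) beside 6.12% of genes called higher and 6.83% lower. At an unadjusted limma p under 0.05 the count was 1, Ltf (0.62 ± 0.25, adjusted p = 0.13). This count depended on the processing. With array weights 9 of 10 were called higher, as were 14.4% of all genes, and with the values as deposited 5 of 10, as were 37.9% of all genes. Without null P15 array 1 the count was 1 and without null P90 array 3 it was 2, for which the share of all genes is not given here. Those arrays were the highest of their group for 10 and the lowest for 10 of the 10 members, respectively.

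No member differed between Igf1 null and wild type by the test. At E18.5 the differences ran from -0.33 ± 0.25 for Ltf to 0.45 ± 0.31 for Ngp, with 0 of 10 called (adjusted p from 0.55 to 0.99) beside 0.0802% of all genes. At P15 all 10 estimates were below 0, from -0.47 ± 0.31 for Ngp to -0.09 ± 0.28 for Prtn3. Again 0 of 10 were called (adjusted p from 0.82 to 0.99) beside 0.015% of genes. At P90 the estimates ran from -0.2 ± 0.3 for S100a9 to 0.22 ± 0.28 for Prtn3, with 0 of 10 called (adjusted p from 0.8 to 0.95) beside 0.296% of genes. At an unadjusted limma p under 0.05 the count was also 0 at each stage. At P90 Xist was at 7.42 to 7.91 in null and 1.86 to 3.33 in wild type, so that genotype and sex cannot be told apart there. With a sex score as a covariate all 10 estimates at P90 were below 0, from -0.83 for S100a9 and -0.78 for S100a8 to -0.17 for Prtn3, with 0 called (adjusted p from 0.98 to 0.99). Because the score follows genotype at P90, these estimates rest on how it varies within groups, and they cannot separate genotype from sex. The arrays of the genotypes overlapped for all 10 members at each stage. Over all genes the share without overlap was 19.7% at E18.5, 16.5% at P15 and 10.5% at P90. At such shares few of 10 genes would lack overlap, so the count is not read as likeness between genotypes.

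These misses do not show equal levels. The 95% confidence intervals reached from -0.86 to 1.1 over the members at E18.5, -1.12 to 0.52 at P15 and -0.85 to 0.89 at P90. At P15 the null arrays were uneven: Lcn2 was at 7.47, 6.61 and 6.62 in null and 7.36, 7.04 and 7.34 in wild type, and S100a9 at 7.7, 6.93 and 6.94 in null and 7.44, 7.29 and 7.63 in wild type. Null array 1 was above the wild-type arrays for both genes, and null arrays 2 and 3 were below all of them. Without null array 1 the P15 estimates ran from -0.72 for Ngp and Ltf to -0.21 for Prtn3, with 0 of 10 called (adjusted p from 0.58 to 1). The genotype difference did not pass the F-test for a change over the 3 stages in any member (0 of 10, adjusted p from 0.46 to 0.97), beside 0.256% of genes, with 0 at an unadjusted p under 0.05. The closest was Ngp (unadjusted p = 0.13), whose estimate was 0.45 at E18.5 and -0.47 at P15.

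The members moved together from array to array. With group means subtracted, Pearson's r between members over the 18 arrays ran from 0.57 (Prtn3 with Ngp) to 0.96 (Elane with Prtn3), with a median of 0.81 over 45 pairs. It was 0.89 to 0.96 among the primary genes, 0.68 to 0.89 among the later genes and 0.57 to 0.93 between the classes. In the 12 postnatal arrays alone the median was 0.94, and in the 6 E18.5 arrays, where the genes were dim, it was 0.29 (-0.55 to 0.91). The points share an array and its normalization, and these values are a description.

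At P90 wild-type array 1 was the highest of its group for 10 of 10 members and array 3 the lowest for 10 of 10. Null array 1 was the highest for 9 and null array 3 the lowest for 10. The primary genes of these 4 arrays lay 0.64 above, 0.47 below, 0.53 above and 0.65 below their group means. In wild type at P15 the primary genes of the 3 arrays lay within 0.04 of their group mean. The primary class thus had an SD of 0.57 (wild type) and 0.6 (null) at P90, against 0.03 and 0.28 at P15, and the later class 0.4 and 0.55 against 0.17 and 0.42. The limma fit pools the spread over all 6 groups, so its SE for a gene does not reflect this difference between stages.

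**Figure D3:**
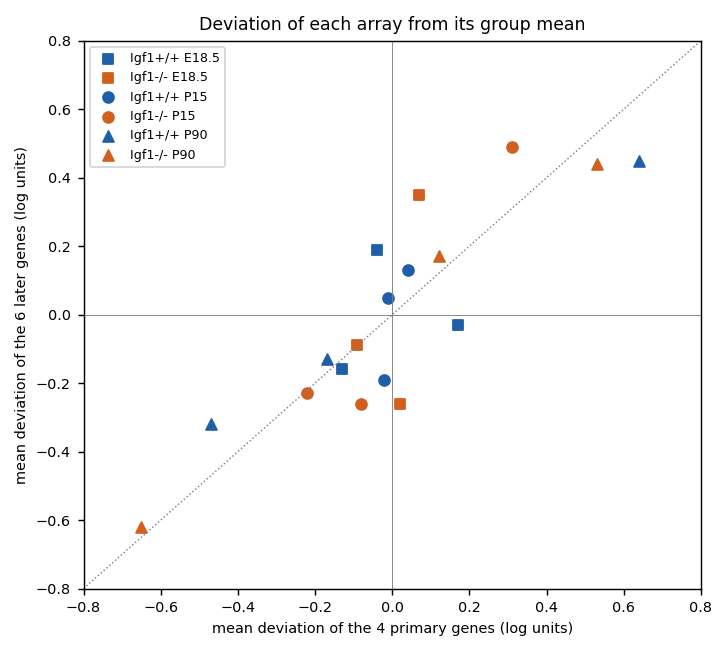
Mean deviation of the 4 primary genes (x axis) and of the 6 later genes (y axis) from the group mean, in log units, with 1 point per array, colour for genotype and shape for stage, and a dotted line where both are equal. The P90 arrays spread most along the line, from -0.65 to 0.64 for the primary genes.

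The genes whose within-group deviations were most like those of the primary class, out of 19928 other genes, were Ncf1, a subunit of the phagocyte oxidase (r = 0.97), the leukocyte integrin chain Itgb2 (0.94), Lrg1, a glycoprotein of neutrophil granules (0.94), the actin-bundling L-plastin Lcp1 (0.93), the small GTPase Rac2 (0.93) and Stat6 (0.92). For the later class they were Mmp8, neutrophil collagenase (0.93), Ptprc, the pan-leukocyte phosphatase CD45 (0.92), Igsf6 (0.92), F630028O10Rik (0.91), the haptoglobin gene Hp (0.9) and Rassf2 (0.9). Of these 12 genes, Ncf1, Itgb2, Lrg1, Mmp8 and Hp stood on the fixed list of other secondary and tertiary granule genes. Likeness between arrays did not always come with a like course over age. Mmp8 rose by 3.98 ± 0.29 from E18.5 to P15 in wild type, whereas Stat6 differed by 0.11 ± 0.12 (adjusted p = 0.51) and Rassf2 by -0.55 ± 0.09 (adjusted p = 0.00016).

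Other neutrophil genes rose with the members from E18.5 to P15. Of 24 measured genes of secondary and tertiary granules 19 were called higher in wild type and 17 in null, 0 lower, with medians of 1.53 and 1.47. They included Ifitm6, Mmp8 and Itgb2, at 5.01 ± 0.35, 3.98 ± 0.29 and 2.25 ± 0.17 in wild type. Of 25 genes of late maturation and blood neutrophils 21 were called higher in wild type, 0 lower, and in null 20 higher and 1 lower. Ly6g, the surface marker of mouse neutrophils, rose by 3.58 ± 0.3 in wild type, Retnlg by 4.46 ± 0.39 and Csf3r, the receptor for granulocyte colony-stimulating factor, by 2.37 ± 0.22.

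The list of other primary granule genes also held lysosomal genes and membrane proteins of myeloid cells. Of its 12 genes 7 were called higher in each genotype, 0 lower, with medians of 0.69 in wild type and 0.46 in null. Lyz2, lysozyme, rose by 2.69 ± 0.18 in wild type, Clec12a by 2.42 ± 0.21 and Ms4a3, a gene of granulocyte precursors, by 2.72 ± 0.33. A list of 19 transcription factors, growth factors and receptors was not of granulocytes alone. It also held genes of progenitors, monocytes and macrophages, such as Myb, Irf8 and Csf1r. Of these 19 genes 11 were called higher in each genotype, with 2 lower in wild type and 1 in null. Myb, a factor of blood progenitors, rose by 2.47 ± 0.17 in wild type and 2.37 ± 0.17 in null, and Irf8 by 1.49 ± 0.17 in wild type. Cd34 fell by 0.75 (SE 0.08) in null, a gene that vascular cells express as well.

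From P15 to P90 most of these genes did not pass. Among the secondary and tertiary granule genes 0 were called higher and 1 lower in wild type (Mmp9, -0.74 ± 0.2, a protease that osteoclasts make too), and 5 higher and 1 lower in null. Orm1, an acute-phase protein, rose by 1.61 ± 0.2 and Adam8 by 0.84 ± 0.15 in null. In the late neutrophil list 1 gene was called higher and 2 lower in wild type and 4 higher and 2 lower in null, of 25, with medians of 0.15 and 0.27. Its stefins Stfa2 and Stfa3 fell by 2.25 (SE 0.44) and 1.84 (SE 0.48) in wild type and by 3.11 (SE 0.44) and 3 (SE 0.48) in null. These belong to a cluster of close copies, whose probes may read more than one gene. Il1b, the cytokine interleukin 1 beta, rose by 0.9 ± 0.2 in wild type, and the lectin Clec4d by 0.77 ± 0.16 in null. Among the factors and receptors 1 of 19 was called higher and 3 lower in wild type, and 0 and 2 in null, with medians of -0.01 and 0.01. Myb fell by 0.78 (SE 0.17) in wild type and 0.87 (SE 0.17) in null, and Csf1r, the macrophage growth factor receptor, by 0.57 (SE 0.13) and 0.56 (SE 0.13). Of the other primary granule genes 0 were called higher and 2 lower in wild type, and 1 and 0 in null. Between genotypes at P90, 1 gene was called in the secondary and tertiary granule list, Arg1 (0.77 ± 0.14, limma adjusted p = 0.033). In the late neutrophil list 1 was called, Clec4d (0.94 ± 0.16, limma adjusted p = 0.021). Both were higher in null and both are also expressed by macrophages. Of the factors and receptors and of the other primary granule genes 0 were called, beside 0.296% of all genes. Genotype and sex cannot be told apart at that stage.

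Lists for other cells that the dissection can hold moved too, and their part in the members' values was not tested. From E18.5 to P15 in wild type, 10 of 11 erythroid, 13 of 15 B lineage, 12 of 12 osteoblast and osteoclast, 5 of 7 megakaryocyte and platelet, and 4 of 9 T and NK cell genes were called higher, 0 lower in each. Rhag, an erythroid membrane protein, rose by 4.05 ± 0.27, Vpreb3, of B cell precursors, by 2.92 ± 0.15, and the bone gene Dmp1 by 2.47 ± 0.2. In null the counts were 10, 14, 12, 3 and 5. Of 14 eosinophil, basophil and mast cell genes 8 were called higher and 3 lower in wild type, and 7 and 3 in null, with the eosinophil granule protein Prg2 at 4.13 ± 0.32 in wild type. Monocyte and macrophage genes were split, with 3 higher and 3 lower of 14 in wild type and 4 and 3 in null. In the wild-type groups the mean of the monocyte and macrophage list, each gene centred on its own mean, ran from -0.08 to 0.1 at E18.5 and 0.01 to 0.23 at P15. Of 14 hair cell genes 1 was called higher and 9 lower in wild type, and of 12 otoconia and supporting cell genes 2 and 6.

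**Figure D4:**
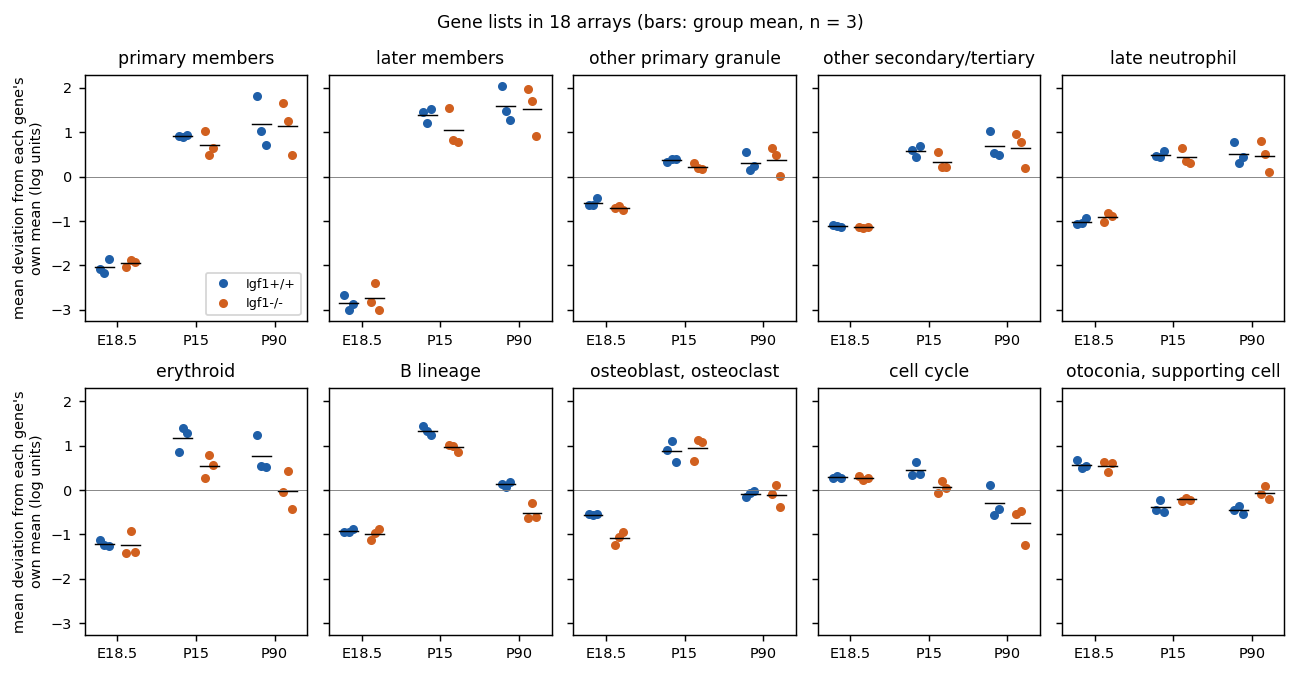
Mean of each gene list after centring every gene on its own mean over all arrays, in log units (y axis), by stage (x axis), with 1 point per array (blue Igf1+/+, orange Igf1-/-) and bars for the group mean. The B lineage, bone and cell cycle lists lie lower at P90 than at P15, while the later member class has group means of 1.05 and 1.4 at P15 and 1.54 and 1.6 at P90 (null and wild type).

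The course after P15 set these lists side by side with the granule genes. Of the B lineage genes 14 of 15 were called lower at P90 than at P15 in each genotype, with medians of -1.29 in wild type and -1.5 in null. Osteoblast and osteoclast genes were called lower in 12 of 12 cases in wild type and 11 of 12 in null (medians -0.98 and -1.08). Cell cycle genes were called lower in 14 and 16 of 19 cases (medians -0.75 and -0.84). Rag2, of antigen receptor rearrangement, fell by 1.82 (SE 0.14) in wild type, Phex, of bone mineral, by 1 (SE 0.15) and Cenpf by 1.07 (SE 0.22). The granule members had medians of 0.23 and 0.43 in the same comparisons. The erythroid list had medians of -0.47 and -0.56, with 2 and 1 of 11 called lower, and the eosinophil, basophil and mast cell list -0.19 and -0.4, with 4 of 14 called lower in each. Not all lists fell. The megakaryocyte and platelet list had medians of 0.47 and 0.5, with 2 of 7 called higher in each genotype, among them Vwf (0.53 ± 0.14 and 0.47 ± 0.14). The T and NK cell list had medians of 0.28 and 0.03, with 0 called higher and 1 lower in wild type and 1 of each in null. For the monocyte and macrophage list the medians were -0.1 and -0.01. Of its 14 genes 0 were called higher and 4 lower in wild type, and 1 higher and 2 lower in null. In the genotype comparison at P90, 4 of 15 B lineage genes were called lower in null, among them Pax5 (-0.94 ± 0.16, limma adjusted p = 0.022). There 0 of 10 granule genes were called, beside 0.296% of all genes in either direction. Genotype and sex cannot be told apart at P90, so these calls cannot be assigned to Igf1.

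Within groups, the list means followed the members to different degrees. Over the 18 arrays r with the mean of the 10 members was 0.94 for the other secondary and tertiary granule genes, 0.91 for late neutrophil genes and 0.88 for other primary granule genes. It was 0.84 for the list of factors and receptors and 0.7 for eosinophil, basophil and mast cell genes. Lower values were found for megakaryocyte and platelet and for T and NK cell genes (0.63 each), cell cycle (0.59), monocytes and macrophages (0.49) and erythroid genes (0.47). They were 0.12 for B lineage, 0.13 for otoconia and supporting cells, -0.09 for osteoblast and osteoclast and -0.22 for hair cell genes. The B lineage and bone lists, many of whose genes passed the age tests, thus had within-group values near 0 here.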

How the data were processed

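RNA from vestibular organs was hybridised to Mouse Gene 1.1 ST array plates, per the labels' protocols. The deposited file is 1 table of log values, 28853 probe sets by 18 arrays. How the authors summarized and normalized it, and the base of its logarithm, are not stated in the labels or the file. The highest deposited value, 10.03, would be an intensity of 22700 with base e and 1050 with base 2. The design had assumed values on a common scale, but array medians differed, so all probe sets were quantile normalized, which removes differences in overall distribution between groups.

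Of 23410 annotated probe sets 21789 had 1 symbol, 1621 had several, and 5443 probe sets had no entry. The RefSeq table of GRCm38.p6 gave current symbols for 21698. The probe set with the highest mean was kept per gene, which gave 19938 genes without an intensity filter. A single limma fit (version 3.58.1 under R 4.3.3; functions lmFit and eBayes; prior df 2.98) held all arrays and 6 group means. P-values were adjusted over all genes by the Benjamini-Hochberg method, a gene was called at 0.05, and the scripts were tested on simulated data. The 3 genotype contrasts, 4 age contrasts and an F-test were made. The text names the members, the 6 genes most like each class, and, of each list, genes among the 3 of smallest p in an age comparison or called between genotypes. Pou4f3, Myo7a, Oc90, Igf1, Xist and Ucp1 were named to check tissue and labels. The members and lists were chosen with earlier results of these data known. Alternatives were other scalings, probe set choice, a filter on dim genes, moderation, array weights, a sex score, a replicate block and left-out arrays. Protein sequences were not used here.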

Additional observations from a re-analysis of the deposited data

How the results depend on the processing

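The 10 calls from E18.5 to P15 held in both genotypes under every alternative run, with differences of 2.15 to 6.13 in wild type and 1.91 to 5.5 in null. The counts of 0 held for the 3 genotype comparisons, the F-test and wild type from P15 to P90. The count of 0 for null from P15 to P90 became 5 as deposited, 9 with array weights, and 0 to 2 with 1 array left out; the cause was not tested. With the replicate number as a block the counts were unchanged (10, 10 and otherwise 0). The numbers did not pair arrays: the same-number correlation of deviations averaged -0.01 (-0.34 to 0.24), and 6 of 18 arrays correlated best with their own number. The values of later minus primary genes stayed within 0.19 of those given; leaving out single arrays there was added after seeing the data.

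Estimates that were not called changed sign in many alternatives, none of them with a call. In null minus wild type at E18.5 these were, as deposited, Elane -0.03. A further fit left out 4 arrays that stood apart in earlier results of these data (null 2 and 3 at E18.5, wild type 1 and 2 at P90). The basis of that choice is not shown here. This leaves a single array in each of those groups, which is assumed to vary like the others. Without the 4 arrays the estimates that changed sign at E18.5 were Mpo -0.3, Ngp -0.12, Camp -0.14, S100a8 0.06. At P90 they were, as deposited, Mpo 0.02, Elane 0.01, Ctsg 0.12, Camp 0.01, S100a8 0.07; with a sex score as a covariate, which lowered all 10, Prtn3 -0.17, Ltf -0.32, Lcn2 -0.55; with array weights, S100a8 0.01; and without the 4 arrays, Mpo 0.3, Elane 0.25, Ctsg 0.46, Ngp 0.04, Camp 0.25, S100a8 0.18, S100a9 0.14. For wild type from P15 to P90 they were, as deposited, Ltf -0.03; with medians subtracted, Mpo -0.15, Ngp -0.25, Ltf -0.31, Camp -0.06, Lcn2 -0.16, S100a8 -0.14, S100a9 -0.01; and without the 4 arrays, Mpo -0.29, Elane -0.15, Prtn3 -0.21, Ctsg -0.14, Ngp -0.12, Ltf -0.27, Camp -0.17, Lcn2 -0.2, S100a8 -0.01.

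Leaving out 1 array in turn changed the sign of some as well. The ranges of the genotype difference at E18.5 were Mpo -0.04 to 0.23, Elane -0.03 to 0.09, Lcn2 -0.18 to 0.37, S100a8 -0.29 to 0.12. At P15 that of Prtn3 -0.21 to 0.03 did so. At P90 they were Mpo -0.41 to 0.13, Elane -0.48 to 0.18, Prtn3 -0.06 to 0.56, Ctsg -0.34 to 0.25, Ngp -0.35 to 0.06, Ltf -0.01 to 0.38, Camp -0.38 to 0.16, Lcn2 -0.12 to 0.46, S100a8 -0.33 to 0.28, S100a9 -0.52 to 0.19. For wild type from P15 to P90 they were Mpo -0.12 to 0.41, Elane -0.02 to 0.52, Prtn3 -0.11 to 0.44, Ngp -0.05 to 0.22, Ltf -0.18 to 0.19, Camp -0.03 to 0.46, Lcn2 -0.14 to 0.38. Other scalings shifted the all-gene median by between -0.13 (wild type E18.5 to P15 with medians subtracted, and the genotype difference at E18.5 as deposited) and 0.37 (null P15 to P90, as deposited), so changes are relative to other genes. The low E18.5 signal limits how well the rises are sized.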
